A study of Mus musculus with 6 samples.

Results

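The immunity-related GTPases (IRG) and the guanylate-binding proteins (GBP) are 2 families of interferon-inducible GTPases, and 9 of their genes are described here in the murine myeloma line DP42: Igtp, Irgm1, Irgm2 and Iigp1 of the IRG family and Gbp2, Gbp3, Gbp4, Gbp6 and Gbp7 of the GBP family. A gene was taken as measured when a probe set was annotated with it alone, and the brightest such probe set over the 6 arrays stood for it. That held for 8 of the 9, all 4 IRG and 4 of 5 GBP genes, among 22180 genes measured in all. Gbp2 has only a probe set that is annotated with Gbp2b too, and its values are given apart. The genes were picked after it was seen in these arrays that Iigp1 was lower, and Igtp and Irgm1 tended to be higher, with neutrophils. Their differences between the neutrophil arrays and the others are therefore a description, with no test.

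DP42 cells, which model multiple myeloma, a cancer of plasma cells, were grown for 24 h in 3 ways: alone, with mouse B cells, which the design text calls the control, or with mouse neutrophils, labelled "neutrophils (IMC)". Co-cultured cells were separated by flow cytometry, and total RNA was hybridised to Affymetrix arrays, 2 per group. No genotype, strain, age or added agent is given for the partner cells, and all groups share the 1 myeloma line. Nothing in the labels ties the paired arrays to independent cultures. The p-values therefore cover just the array-to-array spread, and that spread may be technical. Each co-culture array is titled after the partner, but DP42 is given as its cell type. Values are log2 expression after RMA, an array normalisation that also compresses differences near background.

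Interferon-inducible GTPases are a cell-autonomous defence: they gather on the membranes of vacuoles that hold bacteria or parasites and help to break them. Within the IRG family, Igtp (Irgm3), Irgm1 and Irgm2 are regulatory proteins that sit on the cell's own membranes and hold effector proteins such as Iigp1 (Irga6) in an inactive state. The GBPs are larger, dynamin-like proteins that act on the same vacuoles and on the sensing of bacterial products in the cytosol. Interferon gamma is the classical inducer of both families, through the gamma-activated sequence (GAS) in their promoters, and type I interferon adds to it through the complex ISGF3 at the interferon-stimulated response element (ISRE).

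RefSeq windows of the gene starts (GRCm38.p6) were matched by symbol for 6 of the 9 genes, Igtp, Irgm1, Irgm2, Gbp2, Gbp3 and Gbp7, and the 250 bases before each start were searched on both strands. The ISRE was spelled GAAANNGAAA, or TTTCNNTTTC on the other strand, and the GAS TTCNNNGAA, which reads the same on both. An ISRE match was present for 6 of the 6 genes and a GAS match for 3, while 2.98% of all 32851 windows held an ISRE match, 7.02% a GAS match and 0.332% both. The 150 bases before the start are shown for the 4 of these genes that stood highest with neutrophils and for Gbp3, which did not, with matches in capitals and the start just after the last base.
Igtp, chr11:58199406-58199555, plus strand: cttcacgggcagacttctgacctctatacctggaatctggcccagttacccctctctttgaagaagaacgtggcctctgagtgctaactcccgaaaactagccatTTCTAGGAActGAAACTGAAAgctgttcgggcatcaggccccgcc
Irgm2, chr11:58214827-58214976, plus strand: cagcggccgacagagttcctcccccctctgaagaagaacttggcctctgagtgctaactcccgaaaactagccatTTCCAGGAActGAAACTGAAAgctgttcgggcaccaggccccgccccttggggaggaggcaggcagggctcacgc
Irgm1, chr11:48871421-48871570, minus strand: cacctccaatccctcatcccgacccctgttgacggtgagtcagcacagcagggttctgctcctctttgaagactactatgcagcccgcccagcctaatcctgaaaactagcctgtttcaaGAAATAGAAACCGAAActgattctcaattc
Gbp7, chr3:142530186-142530335, plus strand: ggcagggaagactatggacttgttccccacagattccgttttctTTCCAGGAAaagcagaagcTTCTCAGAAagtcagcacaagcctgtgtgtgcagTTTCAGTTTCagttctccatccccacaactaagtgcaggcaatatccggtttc
Gbp3, chr3:142559894-142560043, plus strand: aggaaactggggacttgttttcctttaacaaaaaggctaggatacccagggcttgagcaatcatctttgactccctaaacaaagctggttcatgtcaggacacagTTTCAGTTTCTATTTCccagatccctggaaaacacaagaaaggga

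In the Igtp window a GAS match, TTCTAGGAA, lies 45 to 37 bases before the start and an ISRE match, GAAACTGAAA, 34 to 25 bases before it. Irgm2, the next gene in the table, holds the same order of matches at 75 to 67 and 64 to 55 bases, and 194 of 215 aligned bases of the 2 windows are identical (90.2%). Irgm1 has 2 overlapping ISRE matches at 30 to 21 and 24 to 15 bases and no GAS match. Gbp7 has 2 GAS matches and 1 ISRE match, while Gbp3 has 2 overlapping ISRE matches at 45 to 36 and 39 to 30 bases before the first of its 2 starts and no match before the second. Gbp2 has 1 ISRE match, TTTCACTTTC, at 59 to 50 bases. Of the 9 other family genes with a window that was searched, 5 held an ISRE match and 4 a GAS match. No GAS match overlaps an ISRE match in the windows of the 6. A match is a run of letters and not a measured binding site. The Gbp3 window thus shares an ISRE match with that of its neighbour Gbp7 but lacks its GAS matches. The levels of the pair across the 3 cultures are given below, and any link between matches and levels was not tested.

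Facts of the whole set of arrays bear on every value that follows. Markers of plasma cells and B cells ranged from bright to dim, with no detection call: Irf4 ran from 10.68 to 10.98, Xbp1 from 9.90 to 10.18 and Pax5 from 10.94 to 11.08 over the 6 arrays. Jchain ran from 5.15 to 5.56, in the dimmest quartile of genes, where Tnfrsf17, Ms4a1 and Fcer2a lay too (means 5.99, 6.25 and 5.795). Prdm1 and Cr2 lay in the second quartile (means 6.84 and 6.58), and the other measured genes of these lists lay above the median brightness. B-cell replicate 2 stood apart from its partner, and the correlation across genes, which are not independent replicates, was 0.996 between B-cell replicate 1 and neutrophil replicate 1 but 0.992 between the B-cell arrays. With neutrophils, dim genes tended to be lower and bright genes higher: against B cells the median difference was -0.15 in the dimmest quartile of genes and 0.15 in the brightest, and against culture alone -0.14 and 0.13. A summed level for chemosensory receptors, taken as the mean over 1394 olfactory and vomeronasal genes, came to 5.56 and 5.51 in single culture, 5.27 and 5.59 for B-cell co-culture and 5.13 and 5.05 for neutrophil co-culture. Neutrophil markers moved with the neutrophil arrays too: the mean of 18 markers was 7.18 and 7.24 there and 6.76 to 6.88 on the other 4 arrays, with 17 of 18 positive against culture alone. In limma's test across all genes 5 of the 18 were higher against culture alone (Ngp, S100a8, Retnlg, Lcn2 and Elane), where 1.49% of all genes passed. Against B cells 1 was higher, Ngp, where 0.0496% of all genes passed. Of the other markers, 0 of 11 monocyte and macrophage, 0 of 10 mature B cell and 0 of 11 T and NK cell genes passed in either comparison. Without B-cell replicate 1, where 24.6% of all genes passed against B cells, 2 of each of these 3 lists did, and against culture alone 1 mature B cell marker passed in 8 of 16 other settings. Left out 1 at a time, single arrays took the first count to between 0 and 4 and the second to between 0 and 6, the 6 being without B-cell replicate 1. S100a8, Retnlg, Camp and Ly6g lay in the dimmest quartile of genes. The part of these shifts in the GTPase values was not tested.

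Among the regulatory IRG genes, Igtp (probe set 17249980) read 7.84 and 7.83 in cells cultured alone, 7.86 and 7.39 with B cells, against 8.29 and 8.19 with neutrophils. Both neutrophil arrays lay above the other 4, and the low value was that of B-cell replicate 2. The mean with neutrophils was 8.24 ± 0.07 (SD, n = 2), against 7.62 ± 0.33 with B cells and 7.83 ± 0.01 alone, a difference of 0.62 ± 0.15 (SE) or 1.54-fold from B cells and 0.41 ± 0.15 or 1.33-fold from culture alone. Its difference from B cells was 0.39 without B-cell replicate 2 and 0.85 without B-cell replicate 1. In bulk RNA, fewer cells of a type and less RNA per cell cannot be told apart.

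Irgm1 (17262202), which also has a role in autophagy, read 7.46 and 7.22 alone, 7.55 and 7.16 with B cells, against 7.82 and 7.79 with neutrophils. Again the neutrophil arrays were the highest, while the alone and B-cell arrays overlapped. Its mean with neutrophils was 7.80 ± 0.02 (SD, n = 2), higher than with B cells by 0.45 ± 0.14 (SE), 1.36-fold, and than alone by 0.46 ± 0.14, 1.38-fold. Without B-cell replicate 2 the first of these was 0.25, and without B-cell replicate 1 it was 0.64.

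Irgm2 (17249990), the third regulator, read 6.56 and 6.83 alone, 6.71 and 6.64 with B cells, against 6.85 and 6.96 with neutrophils. The order was that of Igtp, but the lower neutrophil array was only just above the higher alone array. The difference was 0.23 ± 0.11 (SE) from B cells and 0.21 ± 0.11 from culture alone, 1.17-fold and 1.16-fold. Without alone replicate 1 the difference from culture alone was 0.08, and without alone replicate 2 it was 0.34.

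Iigp1 (17350925), the effector that these regulators hold in check, ran the other way. It read 6.66 and 6.57 alone, 6.20 and 6.49 with B cells, against 5.79 and 5.87 with neutrophils. No array of 1 group overlapped those of another, and the order of group means was alone, B cells, neutrophils. The mean with neutrophils was 5.83 ± 0.05 (SD, n = 2), lower than alone by a difference of -0.78 ± 0.12 (SE), 1.72-fold, and than with B cells by -0.51 ± 0.12, 1.43-fold. In all but the alone arrays and B-cell replicate 2, Iigp1 lay below the lower quartile of the array's genes, which ran from 6.20 to 6.41, so the size of these folds is not exact.

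**Figure D1:**
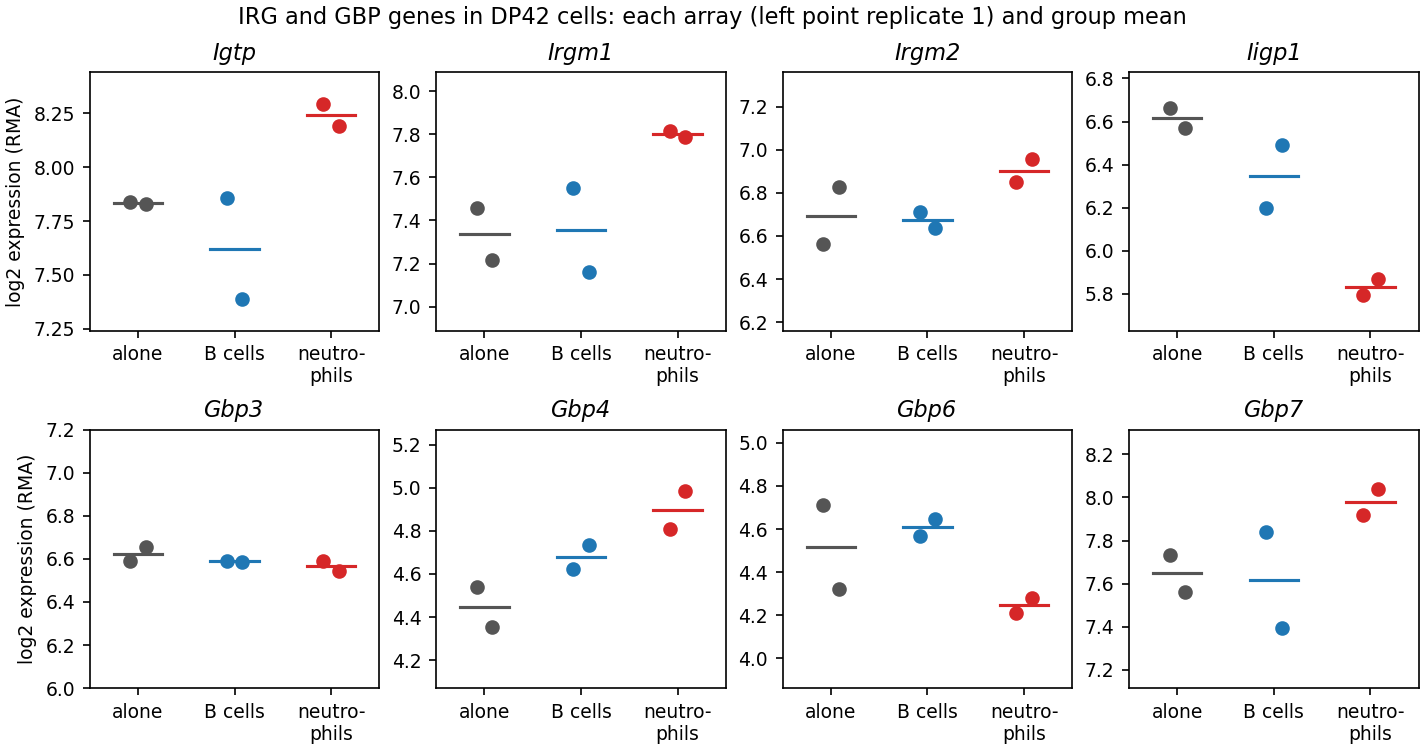
Log2 expression (RMA) of the 8 measured IRG and GBP genes on each array by culture group, with points for arrays and bars for group means of 2; every panel spans 1.2 log2 units. Igtp, Irgm1, Irgm2, Gbp4 and Gbp7 are highest on both neutrophil arrays, Iigp1 and Gbp6 lowest, and Gbp3 runs level from 6.54 to 6.66.

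Of the GBP genes, Gbp7 (17403224), which has been linked to assembly of the NADPH oxidase and to autophagy, read 7.73 and 7.56 alone, 7.84 and 7.39 with B cells, against 7.92 and 8.04 with neutrophils. The neutrophil arrays were the highest. Its difference was 0.36 ± 0.15 (SE) from B cells and 0.33 ± 0.15 from culture alone, 1.29-fold and 1.26-fold. Against B cells it was 0.14 without B-cell replicate 2 and 0.58 without B-cell replicate 1.

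Gbp3 (17403237), a neighbour of Gbp7, read 6.59 and 6.66 alone, 6.59 and 6.59 with B cells, against 6.59 and 6.54 with neutrophils. The B-cell arrays overlapped both other groups, while the neutrophil arrays lay just below the alone arrays, the nearest values being 6.588 and 6.589. The differences of the neutrophil group were -0.02 ± 0.09 (SE) from B cells and -0.06 ± 0.09 from culture alone.

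Gbp4 (17450461) and Gbp6 (17450477), neighbours in another group of GBP genes, had signals in the lowest 5.23% and 3.99% of genes, a range in which signal and background were not told apart. Gbp4 read 4.54 and 4.35 alone, 4.62 and 4.73 with B cells, against 4.81 and 4.99 with neutrophils, so that no groups overlapped. Its difference was 0.22 ± 0.11 (SE) from B cells and 0.45 ± 0.11 from culture alone, and the first was 0.13 without neutrophil replicate 2 and 0.43 with quantile normalisation, which took the second to 0.69. Gbp6 read 4.71 and 4.32 alone, 4.57 and 4.65 with B cells, against 4.21 and 4.28 with neutrophils, where both arrays were the lowest. The differences of Gbp6 were -0.36 ± 0.13 and -0.27 ± 0.13. From culture alone Gbp6 differed by -0.077 without alone replicate 1, by -0.47 without alone replicate 2 and by -0.037 with quantile normalisation, which also took its difference from B cells to -0.16.

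For Gbp2, which coats vacuoles that hold parasites, the probe set shared with Gbp2b (17403268) read 7.28 and 7.29 alone, 7.46 and 7.19 with B cells, against 7.18 and 7.21 with neutrophils. It cannot be divided between the 2 genes. The B-cell arrays overlapped both other groups, and the neutrophil arrays lay below the alone arrays. Gbp2b alone (17403255) read 7.55 and 7.67, 7.75 and 7.63, and 7.60 and 7.83 in the same order, and its groups overlapped as well. Members of both families are close in sequence, and a probe set can take up RNA of a near copy, so each level is that of its probe set.

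Both neutrophil arrays lay above the other 4 for 5 of the 8 genes and below them for 2, against 23.4% and 19% of all genes. The median difference of the 8 was 0.22 from B cells, with 5 positive and 3 negative, and 0.27 from culture alone, again with 5 and 3, beside medians of 0.01 and 0.02 over all genes. In limma's test with Benjamini-Hochberg adjustment over all genes, 0 of 8 passed 0.05 against B cells, where 0.0496% of all genes did and where 5 of the 8 had an unadjusted p under 0.05, beside 20.1%. Without B-cell replicate 1 this count was 4, namely Igtp, Irgm1, Gbp7 and Iigp1, in a setting where 24.6% of all genes passed. Against culture alone 1 of 8 passed, Iigp1, lower, beside 1.49% of all genes (1.36% lower), and 4 of 8 had an unadjusted p under 0.05, beside 17.7%. Iigp1 did not pass without either alone or either neutrophil array. The choice of genes used these contrasts, so nothing is read from the counts.

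**Figure D2:**
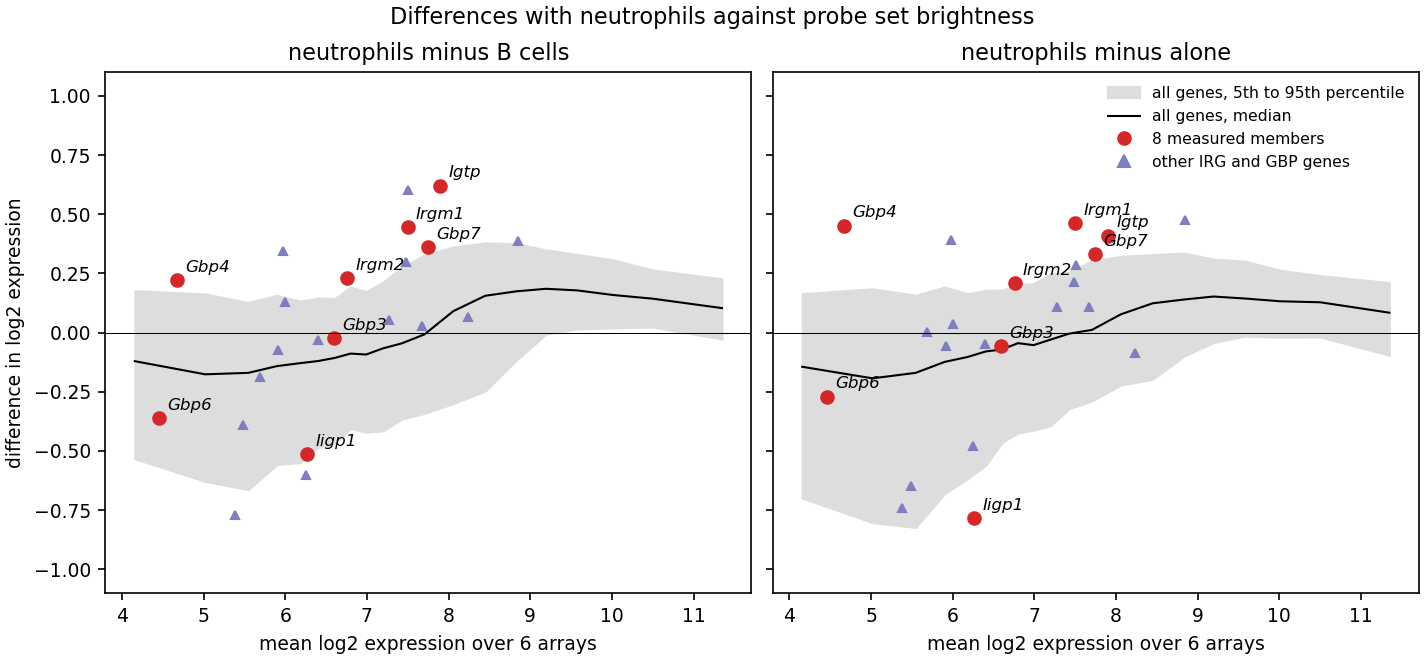
Difference in log2 expression with neutrophils (y axis; from B cells on the left, from culture alone on the right) against mean log2 expression over the 6 arrays (x axis). Red points are the 8 measured genes and triangles other IRG and GBP genes, and the line and band are the median and the 5th to 95th percentile of all genes in 20 bins of brightness; the line runs below 0 for dim and above 0 for bright genes.

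Set beside the 1109 genes of like brightness, the differences from culture alone had this order. The choice of genes used these contrasts, so their places in the bins are a description, with no test. Irgm1 at 0.46 and Igtp at 0.41 lay above the 95th percentile of their bins (0.26 and 0.32), as did Gbp7 at 0.33 (0.30) and Gbp4 at 0.45 (0.19), while Irgm2 at 0.21 lay at the edge of its bin (0.20). Iigp1 at -0.78 lay below the 5th percentile of its bin, -0.62, and Gbp6 at -0.27 inside its bin, whose 5th percentile was -0.70. Against B cells, Igtp at 0.62, Irgm1 at 0.45 and Gbp7 at 0.36 lay above the 95th percentile of their bins (0.36, 0.275 and 0.33). So did Irgm2 at 0.23 (0.19) and Gbp4 at 0.22 (0.16). Iigp1 at -0.51 and Gbp6 at -0.36 lay inside their bins, whose 5th percentiles were -0.55 and -0.53, as did Gbp3 at -0.02. With the receptor mean as a covariate, an alternative added after seeing the data, the differences from culture alone were -0.16 for Igtp, 0.02 for Irgm1, 0.01 for Irgm2, -0.25 for Gbp7, 0.58 for Gbp4 and -0.41 for Iigp1, and 0 of the 8 genes passed. Against B cells the same covariate gave 0.18 for Igtp, 0.11 for Irgm1, -0.08 for Gbp7 and -0.23 for Iigp1. Igtp thus turned direction against culture alone and Gbp7 in both comparisons, and the fit has 1 residual degree of freedom fewer.

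B-cell co-culture against culture alone is the comparison that the choice of genes did not name, and it asked whether the control partner moved the GTPases. Of the 8 genes 0 passed in limma's test, beside 0% of all genes, and 1, Iigp1, had an unadjusted p under 0.05, beside 3.92% of all genes. Iigp1 was lower by a difference of -0.27 ± 0.12 (SE, adjusted p = 0.9999), with both B-cell arrays below both alone arrays, and Gbp4 stood 0.23 ± 0.11 higher (adjusted p = 0.9999) with no overlap. Iigp1 differed by -0.12 without B-cell replicate 1 and by -0.42 without B-cell replicate 2, and Gbp4 by 0.14 without alone replicate 2 and 0.32 without alone replicate 1. Such separation of the groups in 1 direction was seen in 13.5% of all genes for each direction. The other 6 differences ran from -0.21 ± 0.15 for Igtp to 0.09 ± 0.13 for Gbp6, all within overlapping arrays, and the median of the 8 was -0.03, beside -0.00 over all genes.

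The 2 B-cell arrays themselves differed in these genes. Igtp was higher on replicate 1 than on replicate 2 by 0.47, Gbp7 by 0.44 and Irgm1 by 0.39, and Iigp1 was lower there by a gap of -0.29. For 6 of the 8 genes this gap had the sign of the difference between neutrophils and culture alone, which uses neither B-cell array. The same held for 77.9% of all genes, so the share of the 8, 75%, is near the background.

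Other genes of the 2 families came from a list of 17, of which 14 were measured. In limma's test across all genes 0 of the 14 passed against B cells, culture alone or in B cells against alone, with medians of 0.04, 0.02 and 0.02. Without B-cell replicate 1 the count against B cells was 5, beside 24.6% of all genes. They are described by their neighbourhood in the RefSeq gene table (GRCm38.p6), where family genes with no more than a few other genes between them form 6 groups.

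Beside Igtp and Irgm2 lies Gm12250, which encodes the effector Irgb10. It read 7.42 and 7.62 alone, 7.28 and 7.12 with B cells, against 7.89 and 7.72 with neutrophils, the neutrophil arrays being the highest. The difference was 0.60 ± 0.12 (SE, adjusted p = 0.123) from B cells and 0.28 ± 0.12 (adjusted p = 0.259) from culture alone. So all 3 genes of this group had both neutrophil arrays above the other 4, beside 23.4% of all genes. Igtp itself was picked for this direction, so the count is a description.

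The group of Irgm1 holds Gm5431 and 9930111J21Rik2 among its measured genes. 9930111J21Rik2 read 8.67 and 8.65 alone, 8.88 and 8.62 with B cells, against 9.07 and 9.21 with neutrophils, a difference of 0.48 ± 0.11 (SE, adjusted p = 0.0872) from culture alone. Gm5431 read 5.77 and 5.88, 5.94 and 5.81, and 6.50 and 5.95, so that its difference of 0.39 ± 0.17 (adjusted p = 0.268) came mainly from neutrophil replicate 1. Both neutrophil arrays were above the other 4 for 3 of 3 measured genes of this group, beside 23.4% of all genes, and Irgm1 itself was picked for this direction. The effector genes Tgtp1 and Tgtp2, also of this group, share 2 probe sets: 1 read 7.59 and 7.59 alone, 7.59 and 7.87 with B cells, against 7.46 and 7.61 with neutrophils, and the other overlapped between groups too. A probe set shared by 9930111J21Rik1, 9930111J21Rik2 and Psme2 ran against the single-gene probe set, at 9.94 and 9.97 alone and 9.44 and 9.53 with neutrophils.

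Iigp1 lies in a group with Gm4951, Gm4841 and F830016B08Rik. Both neutrophil arrays were below the other 4 for 4 of the 4, beside 19% of all genes, and Iigp1 itself was picked for this direction. Gm4951 read 5.90 and 5.68 alone, 5.24 and 5.82 with B cells, against 5.17 and 5.11 with neutrophils. F830016B08Rik read 5.56 and 5.68, 5.12 and 6.18, and 5.05 and 4.71, and Gm4841 read 6.49 and 6.24, 6.03 and 6.95, and 6.002 and 5.77. For 4 of the 4 genes B-cell replicate 1 was lower than B-cell replicate 2 and than both alone arrays, and for Gm4841 and F830016B08Rik B-cell replicate 2 was the highest of the 6.

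The differences of the 3 neighbours of Iigp1 from culture alone were -0.65 ± 0.17 (SE, adjusted p = 0.118) for Gm4951, -0.74 ± 0.28 (adjusted p = 0.235) for F830016B08Rik and -0.48 ± 0.25 (adjusted p = 0.355) for Gm4841. All 4 genes lie in the dimmest quartile. With the receptor mean as a covariate the neighbours turned positive, at 0.17, 0.73 and 0.87, whereas Iigp1 stayed at -0.41. None passed, beside 0% of all 22180 genes, and the slope of the covariate rests largely on the gap between the B-cell arrays. The receptor mean was lowest on the neutrophil arrays and B-cell replicate 1, as these genes were.

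**Figure D3:**
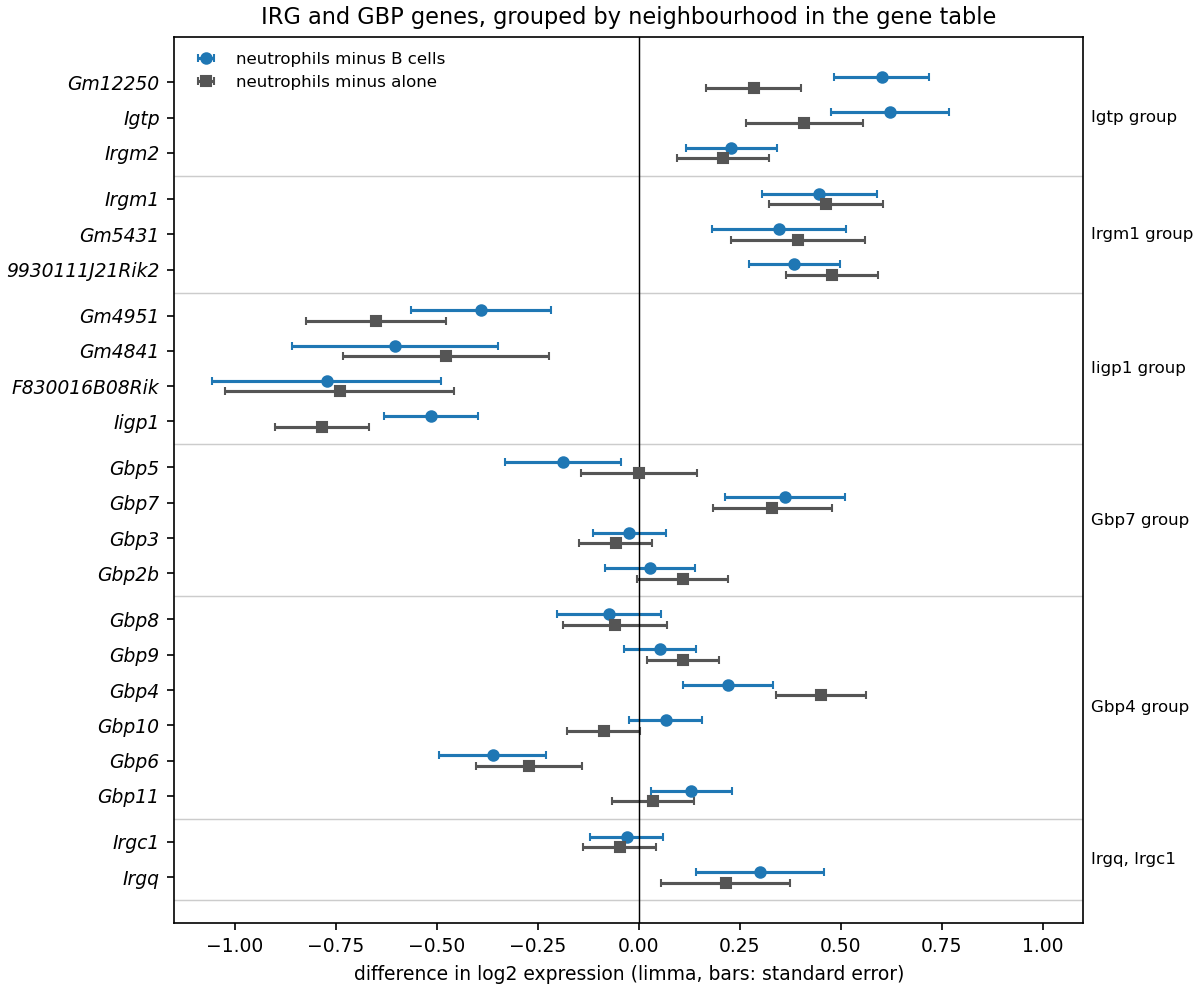
Difference in log2 expression (x axis) with neutrophils from B cells (circles) and from culture alone (squares) for the 22 measured IRG and GBP genes, grouped by neighbours in the gene table; bars are limma's standard errors. All 6 genes of the Igtp and Irgm1 groups lie to the right of 0 and all 4 of the Iigp1 group to the left, while the GBP groups hold both. The choice of genes used these differences for Igtp, Irgm1 and Iigp1.

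The GBP groups were mixed. Beside Gbp7 and Gbp3, Gbp5, which takes part in inflammasome activation, read 5.54 and 5.71 alone, 5.72 and 5.91 with B cells, against 5.43 and 5.82 with neutrophils. Beside Gbp4 and Gbp6, the differences from B cells ran from -0.07 for Gbp8 to 0.13 for Gbp11, with Gbp9 at 0.05 and Gbp10 at 0.07. Irgq and Irgc1, relatives that are not part of the interferon-inducible groups, differed from B cells by 0.30 ± 0.16 (SE) and -0.03 ± 0.09.

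The signals upstream of the GTPases were read from fixed lists, though the lists were made with earlier results known. Of 9 interferon ligand genes 0 passed, beside 0.0496% of all genes against B cells and 1.49% against culture alone. Against B cells 8 of the 9 were negative and the median was -0.24. Against culture alone the median was -0.04, and that of B cells against alone was 0.10. Ifnb1, Ifna2, Ifnk, Ifne and Ifng lay in the 2 dimmer quartiles, where the median difference of all genes from B cells was -0.15 and -0.10. By its label the RNA is that of DP42 cells, so ligand made by the partner cells was not measured. Ifnl2 at -0.40 ± 0.11 (SE, adjusted p = 0.168) and Ifna2 at -0.30 ± 0.11 (adjusted p = 0.216) had the largest differences. Ifng, the classical inducer, named after its values were seen, read 6.91 and 6.96 alone, 6.81 and 6.92 with B cells, against 6.96 and 7.02 with neutrophils.

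Of 15 measured receptor and signalling genes 15 were positive against B cells, with a median of 0.16, and 1 passed, beside 0.0496% of all genes. Irf9, the DNA-binding subunit of ISGF3, read 8.19 and 8.15 alone, 8.19 and 8.25 with B cells, against 9.15 and 9.12 with neutrophils. It rose by 0.92 ± 0.09 (SE, adjusted p = 0.0211) against B cells, a call that held without B-cell replicate 1 (adjusted p = 0.0109) and was lost without any other single array (0.0806 to 0.210), with quantile normalisation (0.0949), with only the 4 arrays compared (0.0806) and with the receptor mean (0.785). Against culture alone it rose by 0.96 ± 0.09 (adjusted p = 0.00801), a call lost without alone replicate 1 (0.122), alone replicate 2 (0.0640) or neutrophil replicate 2 (0.0886), or with the receptor mean (0.772). The feedback inhibitor Socs1 stood 0.47 ± 0.12 higher than with B cells (adjusted p = 0.147). Of the genes for the interferon gamma side, named after their values were seen, Ifngr1 stood 0.16 higher, Ifngr2 0.10 and the transcription factor Irf1 0.10, with adjusted p of 0.420, 0.508 and 0.548. All 15 lay in the 2 upper quartiles of brightness, where the median difference of all genes from B cells was 0.09 and 0.15. The difference of Irf9 from B cells was 0.89 without B-cell replicate 1 and 0.95 without B-cell replicate 2.

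Among 11 measured dynamin-like relatives, 1 rose against culture alone, where 1.49% of all genes passed, and 0 passed against B cells, where 0.0496% did. That gene was Mx1, an antiviral GTPase, at 0.64 ± 0.11 (SE, adjusted p = 0.0376), which read 5.89 and 6.13 alone, 5.99 and 5.95 with B cells, against 6.57 and 6.72 with neutrophils. Its adjusted p was 0.0971 to 0.284 without an alone or neutrophil array, 0.0931 after quantile normalisation and 0.871 given the receptor mean. Mx2 stood 0.49 ± 0.10 higher (adjusted p = 0.0635). The difference of Mx1 from B cells, 0.68, was 0.70 without B-cell replicate 1 and 0.66 without B-cell replicate 2. Of 22 other interferon gamma targets, 1 rose against culture alone, Parp14 at 0.57 ± 0.11 (adjusted p = 0.0490), beside 1.49% of all genes that passed. Against culture alone 17 were positive and 5 negative, with a median of 0.09. Against B cells 0 of the 22 passed, beside 0.0496% of all genes. The adjusted p of Parp14 was 0.164 to 0.288 without an alone or neutrophil array, 0.156 after quantile normalisation and 0.871 given the receptor mean. The difference of Parp14 from B cells, 0.48, was 0.54 without B-cell replicate 1 and 0.41 without B-cell replicate 2. In that list the chemokine gene Cxcl11 stood at -0.33 ± 0.10 against B cells (adjusted p = 0.179).

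Genes that act with the GTPases at vacuoles and in pyroptosis were read from 2 more lists. Of 13 genes for conjugation of ATG8 proteins and ubiquitin, which guide IRG and GBP proteins to vacuoles, 0 passed in any comparison, with a median of 0.12 against B cells and 0.10 against culture alone. Gabarapl1 at 0.27 ± 0.17 (SE) and Atg5 at 0.25 ± 0.12 had the largest differences from B cells, with adjusted p of 0.349 and 0.260. Of 12 inflammasome genes 0 passed in any comparison, with a median of 0.13 against B cells. Il1b stood at -0.29 ± 0.13 (adjusted p = 0.264) and Gsdmd, which forms the pore of pyroptosis, at 0.24 ± 0.14 (adjusted p = 0.335).

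**Figure D4:**
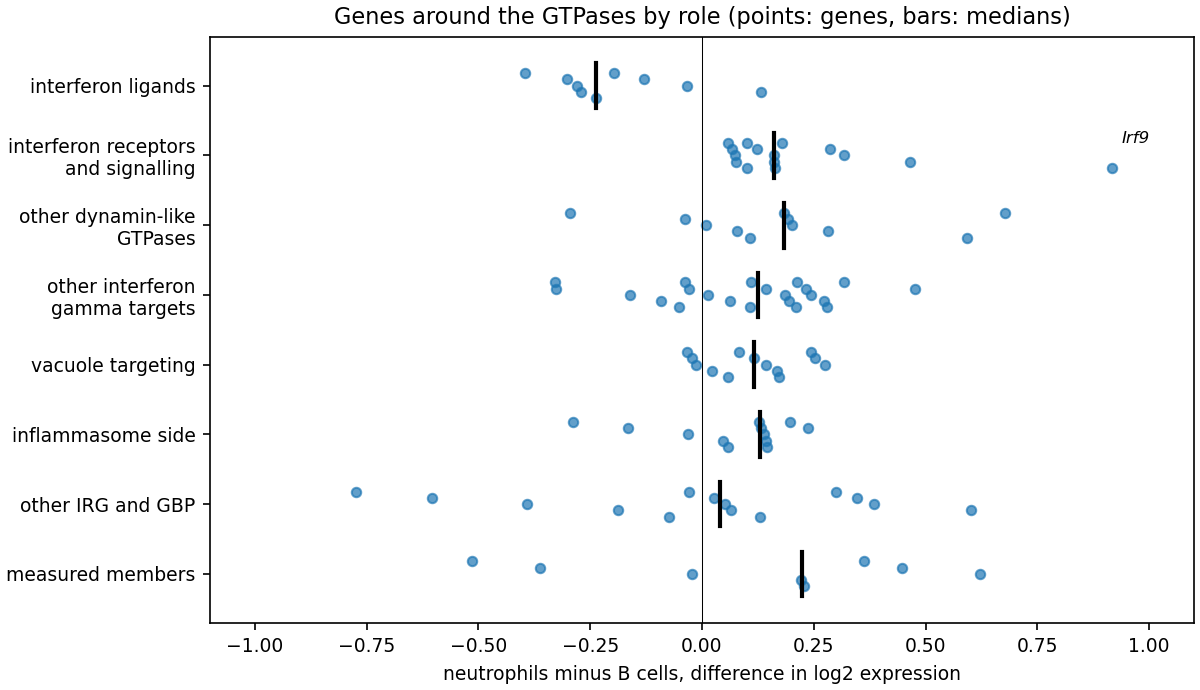
Difference in log2 expression between neutrophil and B-cell co-culture (x axis) for the genes of 8 lists, markers of cell types not among them (points, spread vertically only for legibility) with list medians (bars). Irf9 is the gene of these 8 lists that passed; 8 of 9 ligand genes lie left of 0 and 15 of 15 receptor and signalling genes right of it, and the 8 measured GTPase genes span -0.51 to 0.62.

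Profiles across the 6 arrays were also compared between genes, each centred on its own mean, among the genes at or above the median brightness. For Igtp the nearest by Euclidean distance were H2-T23 (0.0920), Parp9 (0.142) and Ifih1 (0.145), beside a length of 0.716 for the profile of Igtp itself. H2-T23, which encodes a nonclassical class I molecule, read 8.49 and 8.47 alone, 8.54 and 8.03 with B cells, against 8.86 and 8.85 with neutrophils. For Irgm1 they were Ykt6 (0.0801), Mndal (0.0973) and Mipep (0.108), and for Irgm2 Zbtb37 (0.0457), Acvr2b (0.0765) and Rfx2 (0.0837).

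Iigp1, like Irgm2, itself lies below the median brightness, so genes as dim as it were not compared. For Iigp1 the nearest profiles among the brighter genes were those of Olfr1371 (0.142), Krtap4-13 (0.198) and Olfr859 (0.218), beside a length of 0.828 for its own. They are 2 olfactory receptor genes and a keratin-associated gene. Olfr1371 read 8.23 and 8.28 alone, 7.79 and 8.14 with B cells, against 7.51 and 7.46 with neutrophils. The 4 IRG genes share all 6 arrays with these genes, so the distances describe the arrays and carry no test.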

How the data were processed

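RNA of DP42 cells was measured on 6 arrays in 3 groups. The authors deposited log2 values per probe set made with RMA, per the submitters' processing notes, and the log2 scale was taken from the values (3.04 to 14.03). RMA version, array model and any further centring are not given in the sources used here, and no detection call was used. The number of arrays limits the precision.

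Of 41345 probe sets, 23521 were annotated with 1 gene, 1814 with several and 16010 were unnamed. Of those with 1 gene, 23328 matched the RefSeq gene table by identifier. The brightest probe set per gene was kept (22180 genes, 1082 of them with several). The model, with a mean for each group over all 6 arrays, was fitted in limma 3.58.1 (R 4.3.3; eBayes; residual degrees of freedom 3, prior 5.547), two-sided, and Benjamini-Hochberg adjustment over all genes. The threshold was 0.05, and 3 contrasts were tested. The procedure was tested on simulated arrays with independent noise for each gene. They held no shift shared by a whole array, so the test does not cover shifts such as those seen between the B-cell arrays.

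The members and lists were chosen with earlier results of these data known. The lists held 177 symbols, 162 of them measured. By the rule for naming, the text gives every measured member, each list gene that passed, the 2 of each list (markers apart) with the largest difference from B cells, and the 3 nearest profiles of each IRG gene. Others are said to be named after their values were seen, or are neighbours and markers given as context. Replicate numbers are shared between groups in the labels, but nothing says that they mark a shared batch, so the fit has no block. Figures used matplotlib 3.10.9 (Python 3.11.15). The receptor covariate and an exchanged block were added after seeing the data.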

Additional observations from a re-analysis of the deposited data

How the results depend on the processing

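Over 14 settings for Igtp, Irgm1 and Gbp7 and 13 for the others, the direction of the difference from culture alone was kept in 14 of 14 for Irgm1 and in 13 of 13 for Irgm2, Iigp1, Gbp4 and Gbp6, while Igtp and Gbp7 turned negative with the receptor mean as a covariate, and Gbp3 turned positive (0.044) with quantile normalisation. Against B cells, Gbp7 turned negative (-0.0813) with the receptor mean and Gbp3 positive with quantile normalisation (0.0939) and centred arrays (0.0433), while the other 6 kept their direction in 13 or 14 settings. Iigp1 against culture alone ran from -0.83 to -0.41 and lost its call with quantile normalisation (-0.65), with the receptor mean (-0.41) and without any alone or neutrophil array. Against B cells the count of the 8 genes that passed was 0 in every setting that kept 2 arrays per group. In those settings at most 1.35% of all genes passed. Leaving out single arrays leaves a group of 1 array, which is assumed to vary like the other groups. The count moved in such a fit, as given above. Against culture alone the count was 1 in the main fit, beside 1.49% of all genes. It was 0 among brighter genes (3 of the 8 being left), with the receptor mean and under quantile normalisation, beside 0.812%, 0% and 0.0992%. At a threshold of 0.1 it was 2 (Iigp1 and Gbp4), beside 3.38% of all genes. With only the 4 arrays compared it was also 2 (Iigp1 and Igtp), beside 6.03%. In B cells against alone it was 0 in every setting. The median against B cells, 0.22, was 0.45 among brighter genes, 0.36 with quantile normalisation, 0.29 with arrays centred on their medians, 0.0254 with the receptor mean and 0.15 to 0.30 when single arrays were left out. Against culture alone, 0.27 became 0.41 among brighter genes and -0.0857 with the receptor mean, and B cells against alone ran from -0.10 to 0.037 when single arrays were left out. With the replicate number as a block, 0 genes passed against B cells, 1 against culture alone and 0 in B cells against alone, and over all genes the counts were 9, 373 and 0. Deviations from the group mean correlated between same-numbered arrays at -0.0742, 0.0651 and -0.151, the last for B cells and neutrophils. With the B-cell numbers exchanged, a choice made after seeing the data, the counts over all genes were 299, 742 and 0.

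Differences near 0 changed direction in B cells against alone, those of Iigp1 and Gbp4 apart. Irgm1, at 0.02, was -0.022 with quantile normalisation, -0.011 with arrays centred on their medians and -0.0896 with the receptor mean. When single arrays were left out, Igtp ran from -0.45 to 0.022, Irgm1 from -0.18 to 0.21, Irgm2 from -0.15 to 0.11, Iigp1 from -0.42 to -0.12, Gbp4 from 0.14 to 0.32, Gbp3 from -0.068 to 0.0002, Gbp6 from -0.10 to 0.28 and Gbp7 from -0.25 to 0.19. The cause was not tested.

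Over all genes the count against B cells, 11, ran from 1 without B-cell replicate 2 or either alone array to 5453 without B-cell replicate 1, and was 91 among brighter genes, 33 with trend and robust settings, 62 with arrays centred on their medians, 30 at a threshold of 0.1, 1 with quantile normalisation or only 4 arrays and 0 in limma with the receptor mean (777 at an unadjusted p under 0.05). The 331 against culture alone became 90 among brighter genes, 22 with quantile normalisation, 555 with centred arrays, 750 at a threshold of 0.1, 1338 with only 4 arrays or without either B-cell array and 0 with the receptor mean (1254 at an unadjusted p under 0.05). It was 5 to 113 without an alone or neutrophil array. Of the lists other than markers, those against B cells reached at most 6 genes, without B-cell replicate 1, and those against culture alone at most 3. No depth or background signal is known for these values, so levels in the dimmest quartile bound no fold.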
